A study of Rattus norvegicus with 6 samples.

Results

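The miR-199a and miR-214 miRNAs were followed in the rat hypothalamic arcuate nucleus (ARC) after nerve injury. Mature miRNAs were chosen by name, as every listed product of the miR-199a and miR-214 hairpins, which gave 3 of the 562 miRNAs in the deposited files, namely rno-miR-199a-5p, rno-miR-199a-3p and rno-miR-214-3p, written below without the prefix for rat. The suffix names the arm of the hairpin from which a mature miRNA is cut, and miR-214-5p was not analysed here. ARC tissue came from Sprague-Dawley rats aged 8 to 10 weeks and was taken on Day 14 after surgery. In CCI-ION rats the left infraorbital nerve had been constricted with loose silk ligatures, a model of trigeminal neuropathic pain, whereas in sham rats the nerve was exposed and not ligated. There were 3 libraries per group. The study names more rats than libraries per group for its miRNA profiling, and how rats were assigned to libraries or pooled is not given in the sources used here, so that p-values measure the spread between libraries. The comparison asks which miRNAs of the ARC differ in level after the injury.

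miR-199a and miR-214 are processed from a long noncoding transcript, known as Dnm3os, that runs on the strand opposite the dynamin 3 gene. They are known as miRNAs of mesenchymal cells, such as fibroblasts, pericytes and vascular smooth muscle, and have been studied in tissue fibrosis. A hairpin is cut by Dicer into a duplex of a 5p and a 3p arm, and either arm can be loaded into Argonaute, where its seed, bases 2 to 8, directs it to target mRNAs. The 2 arms of miR-199a are set against each other below as a ratio. Within a library that ratio does not depend on the scaling between libraries, since both values share the same size factor.

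The mature sequences are shown because the results turn on differences between the 2 arms of miR-199a and between the hairpins. They are those of the RefSeq annotation of assembly GRCr8, written 5′ to 3′ with the seed in capitals.
miR-199a-5p: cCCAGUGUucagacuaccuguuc
miR-199a-3p: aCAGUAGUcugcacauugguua
miR-214-3p: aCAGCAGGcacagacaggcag
All 3 seeds differ, and no other mature rat miRNA of that table carries any of them. miR-199a-5p has 23 bases and a GC content of 52.2%, miR-199a-3p has 22 bases and 40.9%, and miR-214-3p has 21 bases and 61.9%. On rat chromosome 13 the genes Mir199a2 and Mir214 lie on the same strand, separated by 5310 bases, inside the span of Dnm3 and on the strand opposite to it. The table lists 1 Mir199 gene. The Mir214 hairpin is shown for the place of its arms, which are in capitals.
Mir214: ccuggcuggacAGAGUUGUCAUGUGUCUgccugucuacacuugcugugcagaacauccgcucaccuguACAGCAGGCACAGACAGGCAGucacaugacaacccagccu
The first capital stretch is the arm annotated as miR-214-5p, at positions 12 to 28 of the hairpin, and the second is miR-214-3p, at positions 69 to 89.

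Levels are given as normalized counts, that is, to judge from the values, read counts that the authors had divided by a size factor for each library. The libraries held between 8628309 and 14313839 reads assigned to miRNAs. All CCI-ION libraries except replicate 1 had fewer reads than any sham library. Neuronal miR-124-3p and miR-7a-5p were present in every library, with miR-7a-5p the most abundant miRNA over all 6. Groups were compared with limma on log2(normalized count + 1), two-sided, for 555 miRNAs whose mean was 1 or more, and a miRNA passed the threshold where its adjusted p was below 0.05. Of these, 6.85% passed in either direction and 3.42% passed as higher in CCI-ION rats, while 33% had an unadjusted p below 0.05. The 2 groups did not overlap for 40.7%, and for 19.5% all CCI-ION libraries were the higher ones. Values of single libraries are listed in the order of replicates 1, 2 and 3.

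The members formed an order that held in each library, with miR-199a-3p highest, miR-199a-5p next and miR-214-3p lowest. Their ranks among all miRNAs by mean level were 110, 186 and 353. miR-199a-5p passed the threshold as higher in CCI-ION rats, miR-214-3p was higher in each CCI-ION library than in any sham library without passing it, and miR-199a-3p did not separate the groups. Thus 1 of the 3 members passed the threshold as higher, against 3.42% of all miRNAs tested. All CCI-ION libraries were the higher ones for 2 of the 3, against 19.5% of all.

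**Figure D1:**
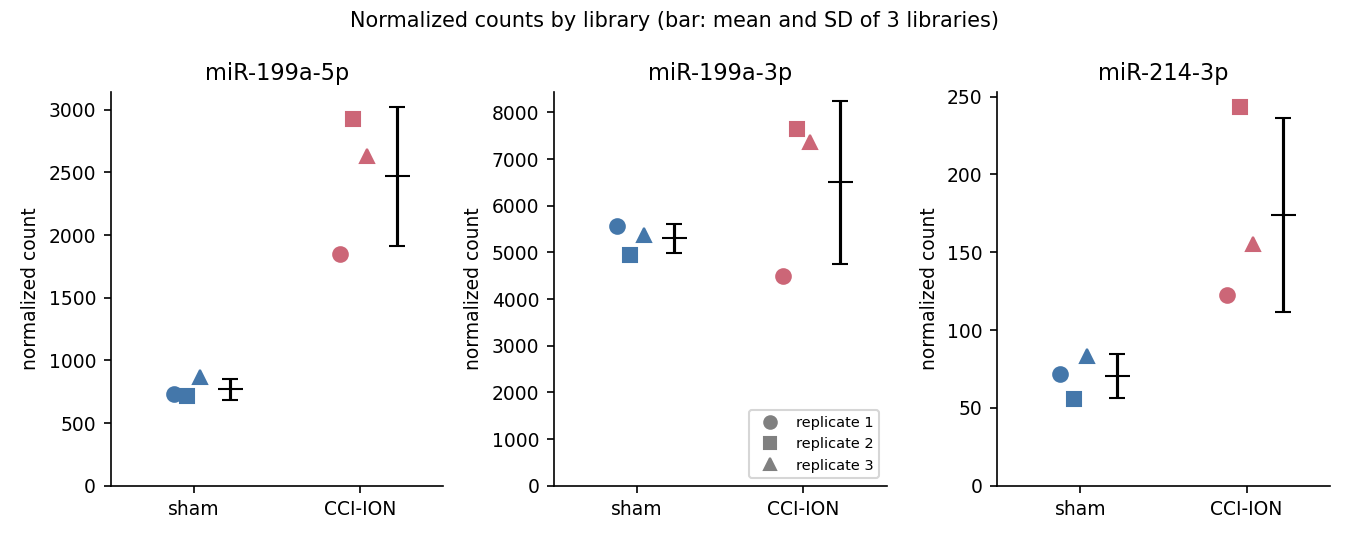
Normalized counts (vertical axis, linear from 0) of the 3 members in each sham and CCI-ION library, with marker shape for the replicate and a bar for mean and SD of 3 libraries. The groups are apart for miR-199a-5p and miR-214-3p, while for miR-199a-3p CCI-ION replicate 1, at 4497, lies below all sham libraries.

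miR-199a-5p, the arm best known from work on fibroblast activation, was at 729, 716 and 866 normalized counts in the sham libraries. In the CCI-ION libraries it was at 1849, 2925 and 2633. Every CCI-ION library was thus at more than double the highest sham library, with replicate 1 the lowest of its group. On the log2 scale it rose by 1.66 with a standard error of 0.21 (limma, Benjamini-Hochberg adjusted p = 0.0190), the 7th highest of the 555. These values rested on 638 to 2446 reads per library. The call was lost without any 1 of sham replicates 1, 2 and 3 or CCI-ION replicate 3, with adjusted p of 0.0679, 0.0768, 0.0680 and 0.0708 from limma. It was kept without CCI-ION replicate 1 or 2.

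miR-199a-3p, the more abundant arm, targets a separate set of mRNAs through its own seed. Its normalized counts were 5567, 4952 and 5375 in the sham libraries, against 4497, 7647 and 7370 in the CCI-ION libraries. CCI-ION replicates 2 and 3 were therefore above all sham libraries, and replicate 1 was below them. The difference was 0.26 on the log2 scale (limma, standard error 0.23, 95% interval -0.32 to 0.84, adjusted p = 0.460), so that the interval includes no change and ends short of the estimate for miR-199a-5p. The spread in CCI-ION rats, 1744 normalized counts (SD, n = 3), was larger than the 315 in sham rats (SD, n = 3). Leaving out CCI-ION replicate 1 gave 0.50 (limma, adjusted p = 0.0849), and leaving out replicate 2 or 3 gave 0.12 or 0.15.

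The 2 arms of miR-199a thus differed in their response. The 5p arm made up 11.6%, 12.6% and 13.9% of the hairpin's reads in the sham libraries, with 95% Wilson intervals, which cover counting error only, of 10.8% to 12.5%, 11.9% to 13.4% and 13.1% to 14.7%. In the CCI-ION libraries it made up 29.1%, 27.7% and 26.3%, with intervals of 28.1% to 30.2%, 26.7% to 28.6% and 25.4% to 27.2%. No interval of one group reached the other group. The 3p arm exceeded the 5p arm 6.92-fold ± 0.713 in sham rats (SD, n = 3) and 2.62-fold ± 0.183 in CCI-ION rats (SD, n = 3). CCI-ION replicate 1 shows the shift most plainly, since both arms together gave 6345 normalized counts there, against 5668 to 6296 in the sham libraries, while its 5p share was the highest of all. In CCI-ION replicates 2 and 3 the sum was 10572 and 10003.

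**Figure D2:**
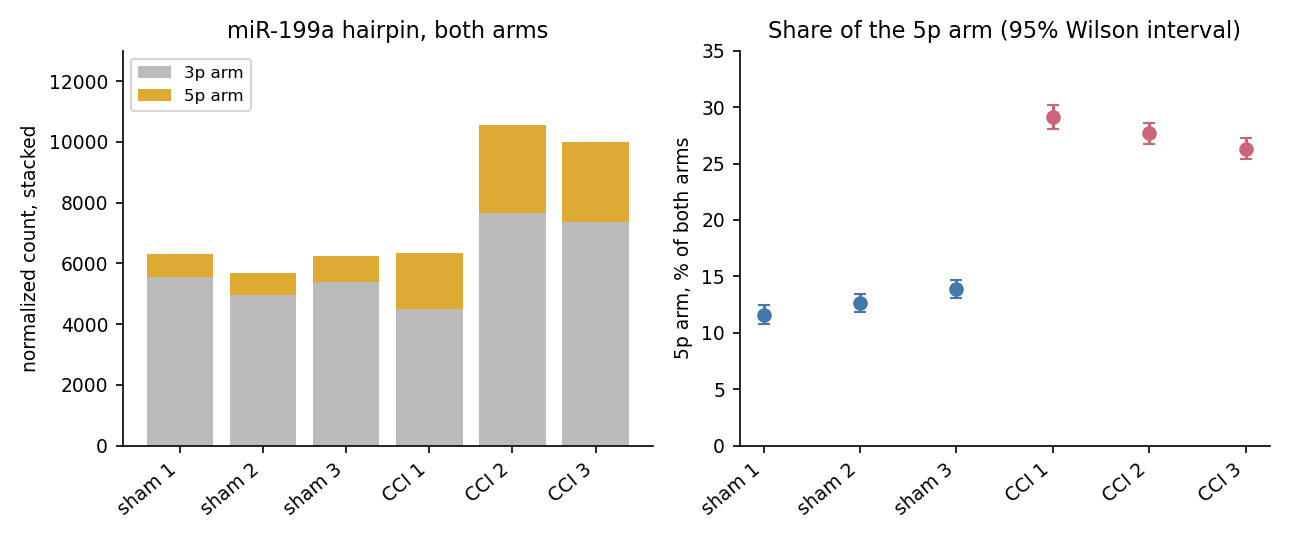
Left, stacked normalized counts of the 3p (grey) and 5p (yellow) arms of miR-199a per library, from 0. Right, the 5p arm as a percentage of both arms with 95% Wilson intervals, between 11.6% and 13.9% in sham libraries and between 26.3% and 29.1% in CCI-ION libraries, also in CCI-ION replicate 1, whose summed arms lie close to the sham level.

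The 5p to 3p ratio, on the log2 scale, was tested with limma in the same manner across the 190 hairpins with both arms. For miR-199a it rose by 1.40 (limma, standard error 0.14, Benjamini-Hochberg adjusted p = 0.00741 over hairpins), with a 95% interval of 1.05 to 1.75. This passed the threshold, as did 10.5% of all hairpins and, in the direction of a larger 5p share, 4.21%. Its groups did not overlap, which held for 40.5% of hairpins. The 20 hairpins behind the share of 10.5% became 4, 6 and 3 without sham replicates 1, 2 and 3, and 12 without CCI-ION replicate 1. The change ranked 19 by size among the 190 and had the lowest p. It passed without each of the 6 libraries in turn, at values from 1.33 to 1.48 and adjusted p from 0.0156 to 0.0477 (limma). The ratio changes of the 2 vessel-wall hairpins were 0.73 for miR-145 (adjusted p = 0.0350 from limma) and -0.43 for miR-143 (adjusted p = 0.398 from limma). For the latter hairpin the ratio thus did not pass the threshold.

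**Figure D3:**
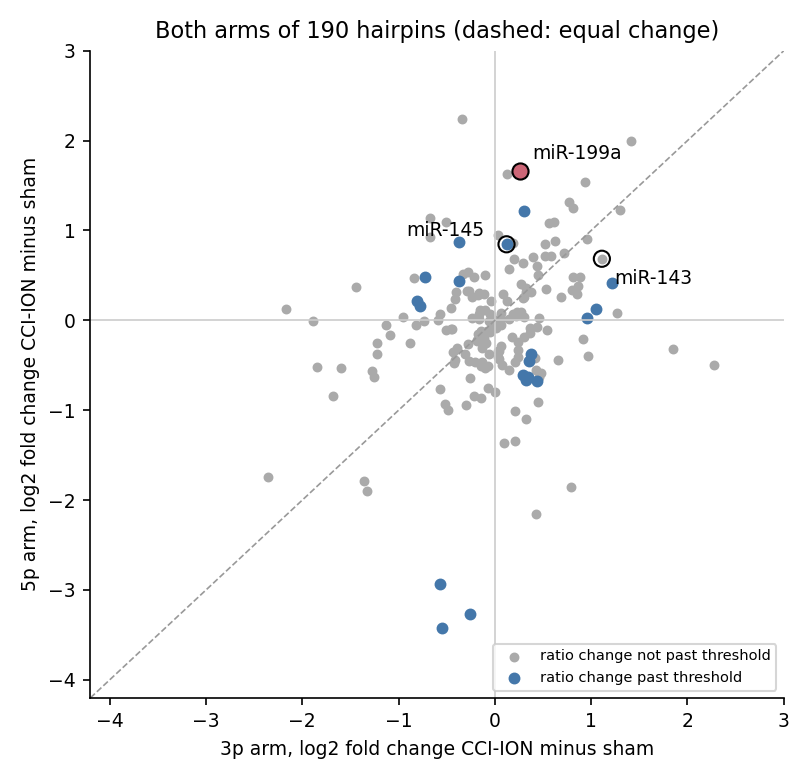
Log2 fold change, CCI-ION minus sham, of the 3p arm (horizontal) and 5p arm (vertical) of 190 hairpins, in blue where the ratio change passed the threshold, with the line of equal change dashed. miR-199a (red) lies above the line, at 0.26 for the 3p arm and 1.66 for the 5p arm, miR-145 lies above it at 0.12 and 0.85, and miR-143 below it.

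GC content differs between the arms of miR-199a, as shown above. Across 507 miRNAs with a RefSeq sequence, Spearman's rho of log2 fold change with GC content was 0.137, and across 165 hairpins that of the ratio change with the GC difference of the arms was 0.0986. These miRNAs share the same 6 libraries. After a linear adjustment for GC content in each library, chosen after the data were seen, the ratio change of miR-199a was 1.31 (adjusted p = 0.0120 from limma).

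miR-214-3p, known as a regulator of muscle and bone formation, was the rarest member. Its normalized counts were 72.0, 55.7 and 83.4 in the sham libraries and 123, 244 and 155 in the CCI-ION libraries. All CCI-ION libraries were above all sham libraries, and replicate 2 stood highest. The difference on the log2 scale was 1.25 with a standard error of 0.30 (limma, unadjusted p = 0.00653, adjusted p = 0.0649), the 15th highest of the 555, and did not pass the threshold. The values came from 63 to 99 reads in sham libraries and 132 to 200 reads in CCI-ION libraries. The nearest values of the groups were in sham replicate 3 and CCI-ION replicate 1. Their exact Poisson 95% intervals, which cover counting error only, were 67.8 to 102 and 103 to 146 normalized counts. It passed under 5 of 16 alternatives. These covered scaling, filters, pseudocount, variance trend, a replicate block, a GC adjustment and leaving out each library. Over all 16 its adjusted p ranged from 0.0230 to 0.179 (limma), the highest without sham replicate 2. The gene Mir3120 overlaps 106 of the 108 bases of Mir214, and for that reason miR-3120, chosen after its values were seen, is given here. It was listed at 0 in sham replicate 1 and CCI-ION replicates 1 and 2, and had 5.82, 6.74 and 8.61 normalized counts, worth 7, 8 and 8 reads, in sham replicates 2 and 3 and CCI-ION replicate 3.

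Changes were compared between the 3 members by an exact permutation test of the log2 ratio per library, two-sided, which cannot give p below 0.1 with 3 libraries per group. The change of miR-199a-5p exceeded that of miR-199a-3p by 1.40 (exact p = 0.1, 0.15 adjusted over the 3 pairs), and the groups did not overlap. miR-199a-3p changed by 0.99 less than miR-214-3p (exact p = 0.1, adjusted 0.15), again without overlap: it exceeded miR-214-3p 77.3-, 88.9- and 64.4-fold in the sham libraries, but 36.6-, 31.4- and 47.5-fold in the CCI-ION libraries. Between miR-199a-5p and miR-214-3p the difference was 0.41 (exact p = 0.2, adjusted 0.2). Here the groups overlapped, with miR-199a-5p at 10.1, 12.9 and 10.4 times miR-214-3p in the sham libraries, and at 15.1 and 17.0 times in CCI-ION replicates 1 and 3 but below sham replicate 2 in CCI-ION replicate 2.

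**Figure D4:**
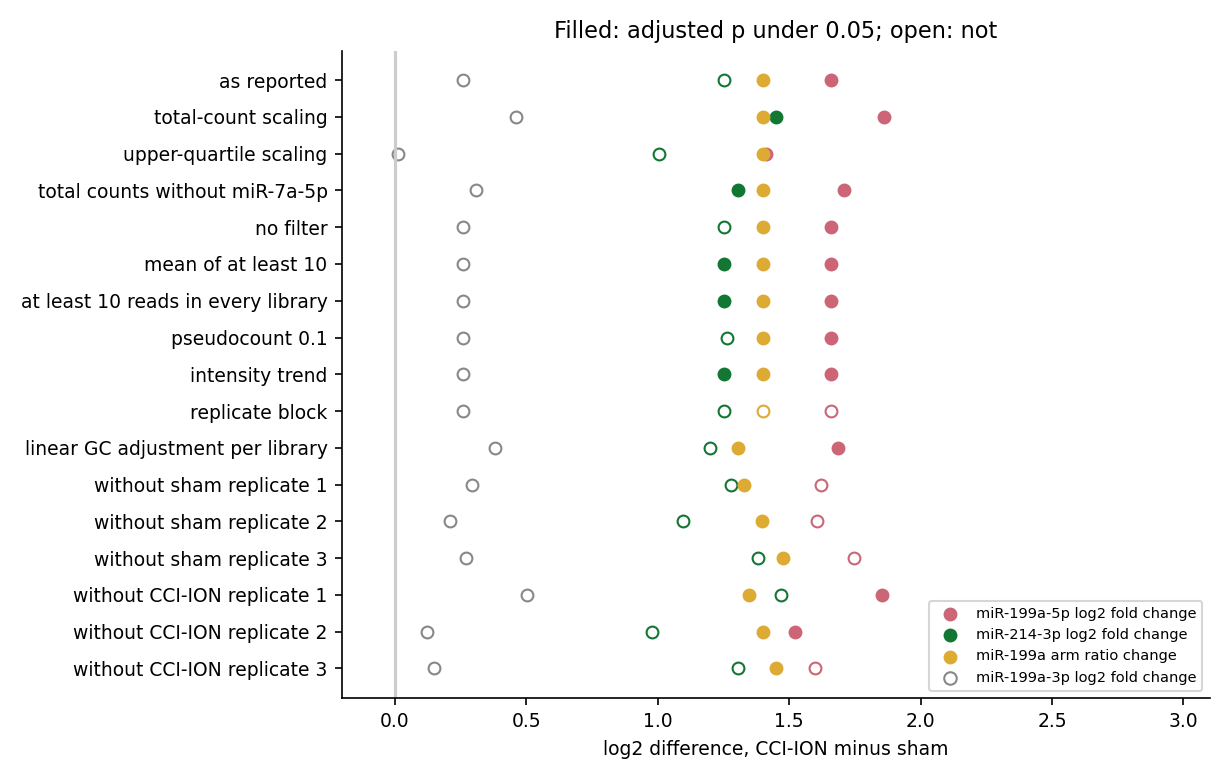
Log2 differences, CCI-ION minus sham, of the 3 members and of the 5p to 3p ratio of miR-199a (horizontal) under each processing alternative (vertical), filled where the adjusted p from limma was under 0.05. miR-199a-5p stays between 1.41 and 1.86, miR-214-3p between 0.98 and 1.47, miR-199a-3p between 0.01 and 0.50, and the ratio between 1.31 and 1.48.

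miRNAs with a similar pattern were sought by the root-mean-square distance between log2 profiles over the 6 libraries, each centred on its own mean, from the mean profile of the members, among the 482 other miRNAs above 0 in all libraries. The nearest were miR-351-5p, miR-378a-3p, miR-378b, miR-145-5p and miR-423-3p, at distances of 0.186, 0.188, 0.207, 0.235 and 0.236. Of the members themselves, miR-214-3p lay at 0.162, miR-199a-5p at 0.308 and miR-199a-3p at 0.411, so that both arms of miR-199a were farther from the members' mean than each of those 5. miR-145-5p, from a hairpin typical of smooth muscle, was the only one of the 5 in the vessel-wall list.

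The vessel wall is where mesenchymal cells of the brain are mostly found, and its list held both arms of miR-143 and miR-145, which maintain the contractile state of smooth muscle. Of these 4, 2 passed the threshold as higher in CCI-ION rats, as did 3.42% of all miRNAs tested, and none passed as lower. The median log2 fold change of the list was 0.77, against -0.01 over all miRNAs tested. miR-143-3p rose from 32179, 40854 and 47797 normalized counts in the sham libraries to 77023, 89533 and 91863 in the CCI-ION libraries. Its groups were apart, with a difference of 1.11 on the log2 scale (limma, adjusted p = 0.0334). miR-145-5p rose from 2612, 2279 and 3283 to 4660, 5111 and 4772, a difference of 0.85 (limma, adjusted p = 0.0450). It did not overlap between groups either, whereas the groups overlapped for miR-143-5p and miR-145-3p, at log2 fold changes of 0.69 and 0.12. All CCI-ION libraries were the higher ones for 19.5% of all miRNAs tested. The summed level of the list ranged from 35489 to 51879 normalized counts in sham and from 82454 to 97636 in CCI-ION libraries. In whole tissue, a different number of cells of a type and a different amount of RNA per cell cannot be told apart. The part of the vessel wall in the values of the members was not tested.

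Lists of miRNAs typical of other cells were examined in the same way. For neurons 0 of 7 passed as higher and 1, miR-124-3p, as lower, against 6.85% of all miRNAs tested in either direction. Their median log2 fold change was -0.78. Without overlap of the groups, 4 of the 7 were lower in CCI-ION rats and 1, miR-129-5p, was higher (0.45). Over all miRNAs tested, 40.7% did not overlap. The summed levels of the list were 2657700 to 3767000 in sham and 1461400 to 1941100 in CCI-ION libraries. miR-7a-5p held the largest part of these sums, at a log2 fold change of -1.04. For oligodendrocytes 1 of 4, miR-338-3p, passed as lower, as did 19 of the 555 miRNAs tested. Without overlap of the groups, 3 of the 4 were lower, against 40.7% of all in either direction. Their median was -0.92, with sums of 13685 to 19928 in sham and 10471 to 11303 in CCI-ION libraries. None of the 9 miRNAs of epithelium and pituitary passed, at a median of 0.89. Their sum was 23033, 16156 and 16544 in the sham libraries, against 20070, 51001 and 38918 in the CCI-ION libraries. CCI-ION replicate 1 was thus within the sham range for this sum. For 2 of the 9, miR-182 and miR-375-3p, all CCI-ION libraries were the higher ones, against 19.5% of all miRNAs tested. The part of these other cell types in the values of the members was not tested.

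None passed in the lists for endothelium, whose defining miR-126a-3p had a log2 fold change of 0.44 and whose median over 2 miRNAs was -0.23 and ranged from -0.48 to -0.02 over the alternatives, for choroid plexus and ependyma (7 miRNAs, median 0.22, and -0.03 with upper-quartile scaling), for skeletal muscle (4 miRNAs, median -0.06, 0.11 with total-count scaling, and -0.72, -0.37 and -0.37 without sham replicate 2, CCI-ION replicate 1 and CCI-ION replicate 3), for erythrocytes (3 miRNAs, median -0.08, 0.12 with total-count scaling, and 0.49 over the 2 that had a mean of 10 or more) or for immune cells (6 miRNAs, median 0.01, and -0.24 with upper-quartile scaling). Within the endothelium list, miR-126a-3p was higher and miR-126a-5p lower (-0.91) in each CCI-ION library than in any sham library. Over all miRNAs tested, 40.7% did not overlap between the groups. The same held for 1 of 7 miRNAs of choroid plexus and ependyma (higher) and 1 of 4 of skeletal muscle (lower). Of the 6 of immune cells, 1 was higher and 1 lower without overlap. Within the erythrocyte list, miR-451-5p was higher in each CCI-ION library than in any sham library, at a log2 fold change of 1.07 (limma, adjusted p = 0.0649). The groups overlapped for miR-486, the most abundant of that list (-0.08), and for miR-144-5p (-1.12, at a mean of 4.11 normalized counts). Fibrosis-related miRNAs were looked at because miR-199a-5p and miR-214-3p have been studied there. Of 4 others known to rise in fibrotic tissue, 1, miR-145-5p, also in the vessel-wall list, passed as higher, against 3.42% of all miRNAs tested. The median was 0.33, ranging from 0.08 to 0.53 over the alternatives. miR-21-5p, the best known of the 4, was at 6546, 4689 and 5800 normalized counts in the sham libraries. In the CCI-ION libraries it was at 11146, 4578 and 12145, so that CCI-ION replicate 2 was below all sham libraries. miR-34a-5p went the other way, lower in each CCI-ION library than in any sham library (log2 fold change -0.67). For miR-155-5p the groups overlapped (0.06). Among 14 known to fall in fibrotic tissue, such as the miR-29 family that represses collagen, 0 passed in either direction, with a median of 0.39. This median was 0.17 without CCI-ION replicate 3, 0.24 without sham replicate 3, 0.14 with upper-quartile scaling and 0.59 with total-count scaling. Without overlap of the groups, 2 of the 14 were higher in CCI-ION rats and 1 was lower, against 40.7% of all miRNAs tested in either direction. miR-29a-3p, the most abundant of the miR-29 family here and 1 of the 2 higher ones, had a log2 fold change of 0.21.

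**Figure D5:**
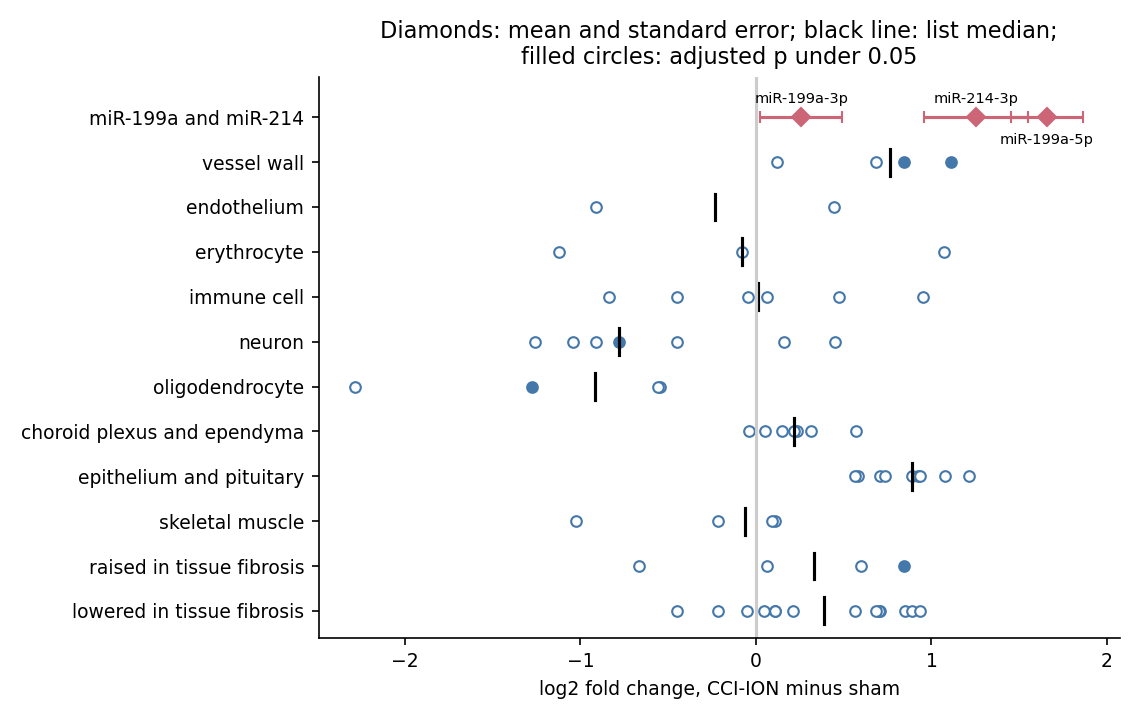
Log2 fold change, CCI-ION minus sham (horizontal), of the 3 members with standard errors (diamonds, top) and of each miRNA of the 11 lists (circles, filled where the adjusted p from limma was under 0.05), with list medians as black lines. The vessel-wall list has a median of 0.77, those of neurons and oligodendrocytes -0.78 and -0.92.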

How the data were processed

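miRNAs of the rat ARC were sequenced in 3 sham and 3 CCI-ION libraries, grouped by the sample labels. For each library the authors deposited signal values of mature miRNAs, each, to judge from the values, a read count scaled by the library's size factor (normalized count). The submitters' processing notes name cutadapt 1.14, Bowtie 1.1.1 and genome build rn6, and the labels an Illumina TruSeq RNA kit. The counting, the miRNA annotation and the normalization method are not given in the sources used here. All values above 0 were whole multiples of a step per library (within 0.02 of a whole number), the smallest being worth 5, and read numbers given here were obtained by division by that step, as were the intervals that rest on them.

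Log2(normalized count + 1) was fitted with limma 3.58.1 in R 4.3.3, two-sided, with no covariates, on 555 miRNAs whose mean was 1 or more, with Benjamini-Hochberg adjustment and a threshold of 0.05. The same test was applied to 5p to 3p ratios of 190 hairpins. Both were tested on simulated data. Pairs of members were compared by exact permutation. Alternatives covered scaling, filters, pseudocount (0.1), variance trend, a replicate block and leaving out each library, and a GC adjustment was added after the data were seen. edgeR and DESeq2, also listed, were not run because whole reads were not taken as established, the smallest value being 5 steps and not 1. Sequences are from RefSeq (GRCr8), matched by name for 512 of 562 miRNAs, and coordinates are not printed because the builds differ.

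Besides the members, the text names 5 miRNAs with the nearest profile and up to 4 of each list with the highest mean level. The members and the 11 lists (vessel wall, endothelium, erythrocytes, immune cells, neurons, oligodendrocytes, choroid plexus and ependyma, epithelium and pituitary, skeletal muscle, and miRNAs raised or lowered in fibrosis) were chosen with earlier results of these data known.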

Additional observations from a re-analysis of the deposited data

How the results depend on the processing

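miR-214-3p had the fewest reads of the members, at 63 to 200 per library. The median over all miRNAs, -0.01, became 0.17 under total-count scaling and -0.26 under upper-quartile scaling, which brought miR-199a-3p, miR-199a-5p and miR-214-3p to 0.46, 1.86 and 1.45 and to 0.01, 1.41 and 1.01. Each member and the arm ratio kept its direction in all 16 alternatives. miR-199a-5p passed the threshold in 11 and the arm ratio in 15, while miR-199a-3p passed in none (unadjusted p under 0.05 without CCI-ION replicate 1 only).

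miR-214-3p newly passed with total counts (log2 fold change 1.45, adjusted p = 0.0385 from limma), without the most abundant miRNA (1.30, 0.0483), with a mean of at least 10 (1.25, 0.0379), with 10 or more reads required in every library (1.25, 0.0230) and with an intensity trend (1.25, 0.0240). Both filters left fewer miRNAs to test (489 and 457). Under them its unadjusted p was also lower, at 0.00356 and 0.00206 against 0.00653 as reported (limma). The cause was not tested for any of these settings.

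With the replicate block, miR-199a-5p (1.66, adjusted p = 0.0823 from limma), the arm ratio (1.40, 0.0788) and miR-214-3p (1.25, 0.151) did not pass, and 3 miRNAs passed in all. Deviations from the group means of like-numbered libraries had correlations of -0.031, 0.188 and -0.012. Libraries of unlike number were not compared, so that these values cannot decide whether the libraries were paired.

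Of all miRNAs, 38 passed (19 higher, 19 lower). Total-count scaling gave 51, of which 42 were higher, and upper-quartile scaling gave 94, of which 10 were higher. The count was 49 without the most abundant miRNA (30 higher, 19 lower), 63 with a mean of at least 10, 96 where 10 or more reads were required throughout, 88 with the intensity trend and 24 with the GC adjustment.

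With a library left out, the log2 fold change ranged from 1.52 to 1.85 for miR-199a-5p, 0.98 to 1.47 for miR-214-3p and 0.12 to 0.50 for miR-199a-3p, the arm ratio from 1.33 to 1.48, and the calls from 7 to 43. Hairpins passing by arm ratio, 20 as reported, ranged from 3 to 22 with a library left out, and were 0 with the replicate block and 32 where 10 or more reads were required throughout. The listed edgeR and DESeq2 alternatives were not run.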

Other observations

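Beside miR-199a, 7 other hairpins passed the threshold with a larger 5p share in CCI-ION rats, and they are named here after their values were seen. With all 6 libraries 20 hairpins passed in either direction. The count was 4, 6 and 3 without sham replicates 1, 2 and 3, up to 22 with another library left out, and 0 with the replicate block. These totals do not show which of the 7 passed in each case. The 7 were miR-532, miR-15b, miR-221, miR-124, miR-30d, miR-134 and miR-145, with ratio changes from 0.73 to 1.25 on the log2 scale, below the 1.40 of miR-199a. Which arm passed the threshold differed between them, and these differences between hairpins were not tested. In miR-532, miR-30d and miR-145, as in miR-199a, the 5p arm passed as higher (log2 fold changes of 0.88, 1.22 and 0.85, against 1.66) and the 3p arm did not pass. In miR-15b, miR-221 and neuronal miR-124 the 3p arm passed as lower (-0.73, -0.81 and -0.78) and the 5p arm did not pass. In the opposite direction 12 hairpins passed, and over all 190 hairpins the median change of the ratio was -0.04.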
